A study of Mus musculus with 3 samples.

Results

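The genes described here are the interleukins, the tumour necrosis factor (TNF) superfamily, and their receptors and induced proteins, measured in mouse diffuse-type gastric cancer. They were chosen by name alone: gene spots whose symbol is Tnf, Lta, Lif, Lifr, Osm or Osmr, or begins with Tnfsf, Tnfrsf, Tnfaip or Il and a digit, with 6 symbols left out. This gave 123 genes on 156 probes and 219 spots, of 31896 genes on 39429 probes and 43020 gene spots. The study compared primary diffuse-type gastric cancer, 3 tumours from Atp4b-Cre+;Cdh1loxP/loxP;Trp53loxP/loxP mice aged 12 months, with normal gastric mucosa, 1 pool of 5 mucosae from Atp4b-Cre-;Cdh1loxP/loxP;Trp53loxP/loxP mice of the same age. Both genotypes therefore carry floxed Cdh1 (E-cadherin) and floxed Trp53 (p53), and only the tumour mice carry Cre, which the promoter of Atp4b, a proton pump subunit of parietal cells, drives. Each tumour was labelled in red and hybridised to its own 2-colour Agilent array, and the same pool was labelled in green on all 3 arrays.

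Interleukins and TNF superfamily ligands are secreted or membrane-bound signals, and each binds a small set of receptors. Receptors of the IL-1 family and many TNF receptors lead to NF-kappa-B and AP-1, while most other interleukin receptors work through JAK kinases and STAT factors. Several family members are brakes rather than signals: decoy receptors that bind a ligand without transmitting it, antagonist ligands, and induced enzymes such as A20 (Tnfaip3) that shut the pathway down. In the stomach, IL-1 beta is known for lowering acid secretion and for promoting inflammation and cancer, and IL-11 acting through gp130 is known for driving gastric tumours in mice.

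Among the 87 genes tested, 30 were higher in the tumours than in the pool and 5 were lower, while 52 were not called. To be tested, a gene needed a probe well above background on each of the 3 arrays, either in the tumour channel or in the pool channel. Calls required at least a 2-fold difference and an adjusted p under 0.05 in a limma test of the 3 log2 ratios against 0, fitted over all 19434 genes that passed this filter. The 30 are 34.5% of the 87, and 9.33% of all genes tested were called higher. The 5 are 5.75%, and 9.68% of all genes were called lower, which puts 19.0% of all genes in either direction. The median log2 ratio was 0.53 over the 87 genes and 0.05 over all genes tested. The filter enters these numbers: 33 of the 87 passed through the tumour channel alone, none through the pool channel alone, and 9 of those 33 were called higher. Over the 54 genes above background in both channels on every array, 21 were higher and 5 lower, against 1487 higher and 1789 lower of 15591 genes in all. The plot of called genes by array shows all 35 with the same sign on each array, which the call nearly requires with so few arrays.

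**Figure D1:**
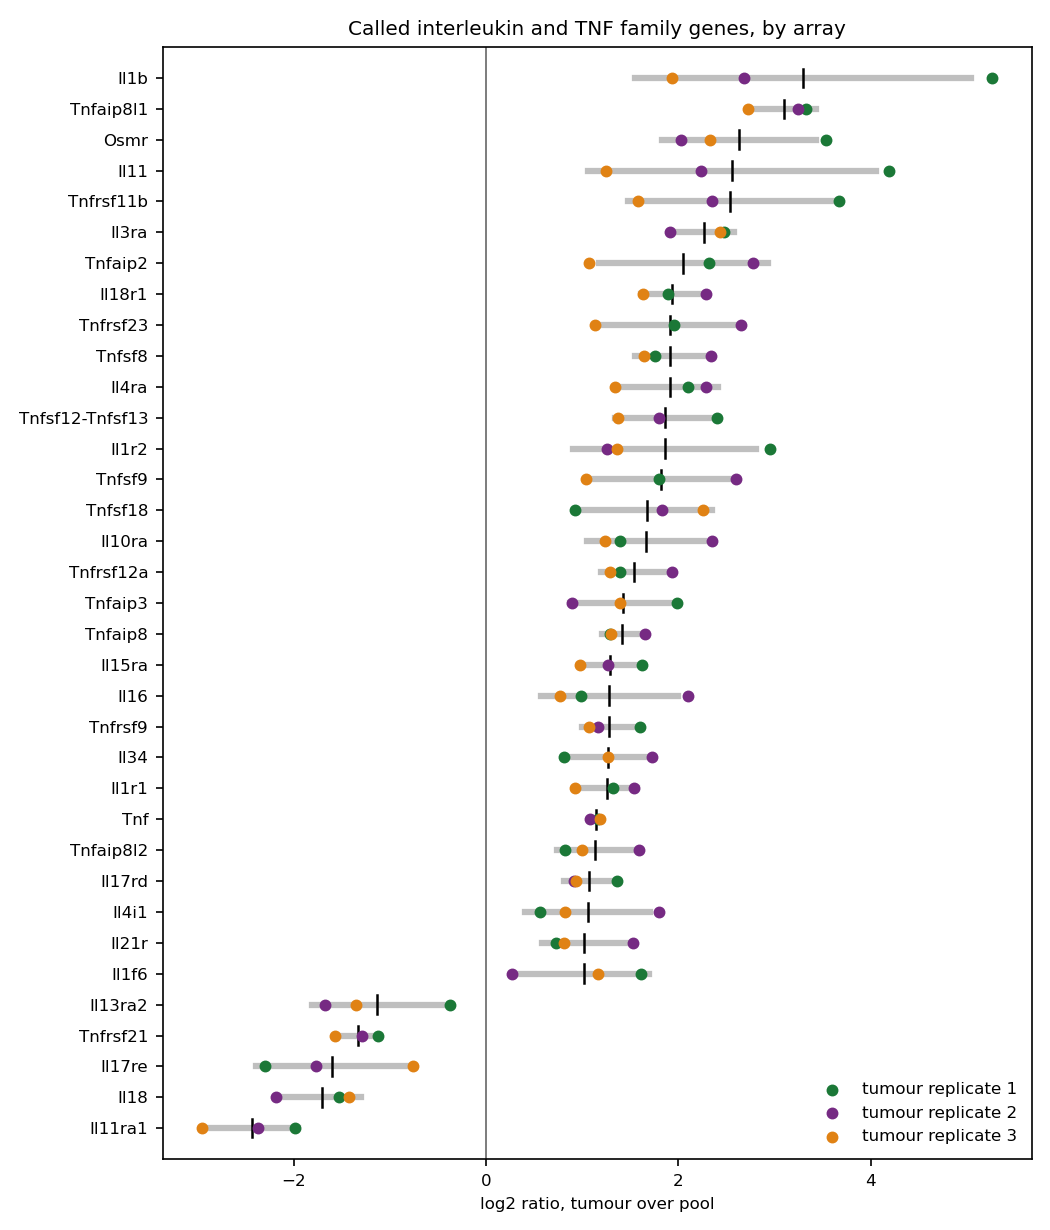
Log2 ratio of tumour over pool (x axis) of the 35 called interleukin, TNF superfamily, receptor and TNF-induced genes (y axis), with 1 point per array, a black tick at the mean and a grey bar of 1 SD to each side (n = 3). Il1b and Il11 spread most widely, with replicate 1 highest, while the 3 points of Tnf span 0.10 log2 units.

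The remaining 36 of the 123 genes did not pass the filter, many lymphocyte cytokines among them. On no array and in neither channel were Il2, Il3, Il4, Il5, Il9, Il10, Il12a, Il12b, Il13, Il17c, Il17f, Il1f5, Il1f10, Il1rapl2, Il21, Il22, Il23r, Il25, Il31, Tnfaip8l3 and Tnfrsf8 well above background, 21 genes in all. A further 14 genes were above background in the tumour on 1 or 2 arrays and in the pool on none. Of these, Il17rb, Il1f9, Il31ra, Il7, Lta and Osm were detected in 2 tumours, and Il17a, Il1f8, Il1rapl1, Il20, Il20ra, Il22ra2, Il9r and Tnfsf4 in 1 tumour. Il17b was the last of the 36, above background on 1 array in the tumour and on 1 array in the pool. These genes have no fold change here, since signals at background have no order.

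The tumours and the pool also differed in the cells they hold, and that difference touches every result below. The labels state that stroma was stripped from the mucosae with 30 mM EDTA and state no such step for the tumours, so tissue make-up and tumour state cannot be told apart. More cells of a type and more RNA per cell cannot be told apart either. Markers of neutrophils were higher for 6 of 10 genes (S100a9 by 6.70 log2 units), of macrophages for 9 of 11 tested (Cd14 by 3.72), of fibroblasts for 8 of 9 (Lum by 3.62), of B and plasma cells for 5 of 7 (Cd79b by 3.55), of T and NK cells for 4 of 7 (Lck by 1.90) and of endothelium for 3 of 7 (Vwf by 2.79). All 10 markers of gastric gland epithelium were lower, led by Cblif, gastric intrinsic factor, which fell by 7.89 log2 units and had mean log2 signals of 9.52 in tumours and 17.40 in the pool. The log2 of the summed signal of the neutrophil list was 15.56 to 17.76 in tumours and 13.61 to 13.70 in the pool. For the macrophage list it was 14.43 to 14.78 in tumours and 12.37 to 12.73 in the pool, for the fibroblast list 15.55 to 17.27 in tumours and 13.98 to 14.12 in the pool, and for the B and plasma cell list 12.36 to 13.78 in tumours and 10.56 to 10.82 in the pool. Most of the neutrophil sum in the pool came from Csf3r, which was not called and had a mean log2 signal of 13.46 there. S100a9 and S100a8 had pool means of 8.43 and 7.28. Ms4a1, a defining B cell marker, was not well above background in the pool on any array, and nor were Camp and Ly6g of neutrophils. Not every marker rose: Cd4 of T cells had a ratio of -0.65 ± 0.14 (adjusted p = 0.00931) and Kdr of endothelium -0.76 ± 0.31 (adjusted p = 0.0164). Both were under 2-fold and not called, and Cd3e (0.10) and Pecam1 (0.22) were not called either. The part of these cells in the results was not tested. Red spots were well above background at 64.0% to 66.8% and green spots at 52.5% to 54.2%, and no gene spot was saturated.

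Interleukin 1 beta, the fever-inducing cytokine that is cleaved by caspase-1, had the highest fitted ratio of the 87 genes tested. That rank was not kept under every setting. Tnfrsf11b, whose ratio is a lower bound, was above Il1b with an offset of 0 (4.70 and 4.53), and Tnfaip8l1 (2.98) without replicate 1. With Agilent's processed signals Il1b (5.28) was below Tnfrsf11b (6.33) and Il6 (5.48). Its probe, printed at 10 spots per array (chr2:129190347-129190406, mm9), had log2 signals of 12.34, 9.68 and 8.85 in tumours 1, 2 and 3, against 7.08, 6.99 and 6.91 for the pool on the same arrays. Tumour 1 stood far above tumours 2 and 3, and the pool hardly moved. The log2 ratio was 3.29 ± 1.75 (SD, n = 3; adjusted p = 0.0198), with the pool well above background on 2 of 3 arrays, and the call was lost without replicate 2, where the ratio was 3.60. Without replicate 1 the ratio of Il1b was 2.31. Il18, a sister cytokine that epithelial cells are known to hold as a precursor, was lower: 11.14, 10.49 and 11.36 in tumours and 12.66, 12.67 and 12.78 in the pool. The groups did not overlap, and the log2 ratio was -1.71 ± 0.41 (SD, n = 3; adjusted p = 0.00354). Il1f6, now called IL-36 alpha, had 8.30, 6.32 and 7.58 in tumours and 6.69, 6.05 and 6.42 in the pool, which was not well above background on any array. It was at least 1.99-fold higher (adjusted p = 0.0409), the weakest of the 30 calls, and was lost under 5 of the 9 alternatives in which it was tested, among them without replicate 1 (0.72) and without replicate 3 (0.94). Il1a and the receptor antagonist Il1rn had the pool above background on no array, so only bounds are known. Il1a was at least 1.43-fold higher (adjusted p = 0.0242) and Il1rn at least 1.59-fold (adjusted p = 0.00964), short of the size a call needs. With spike-in centring the ratio of Il1a was -0.23 and that of Il1rn 0.24, and with an offset of 0 they were 1.59 and 1.46. Il33, an alarmin of epithelial and stromal nuclei, had ratios of -0.29, 0.40 and -0.81 in the 3 tumours (adjusted p = 0.482). Its mean of -0.23 turned to 1.04 with each array centred on its median, where it was called higher (adjusted p = 0.0274).

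**Figure D2:**
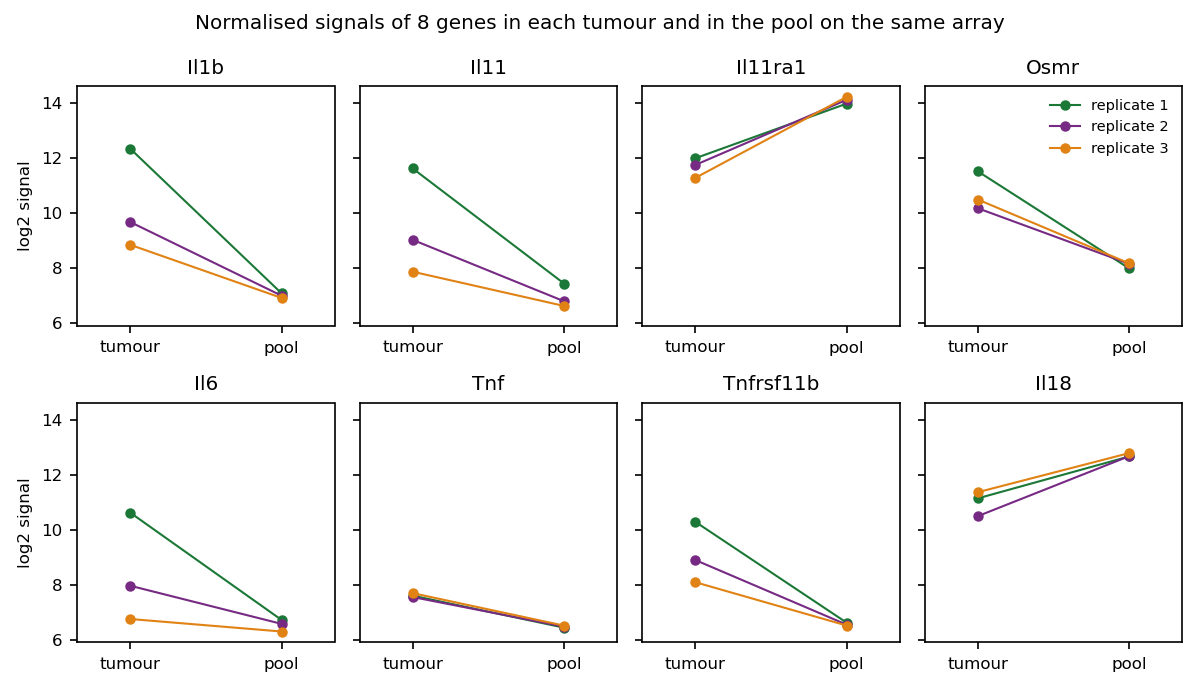
Normalised log2 signal (y axis) of 8 genes in each tumour (left) and in the pool on the same array (right), with 1 line per array. Il1b, Il11, Il6 and Tnfrsf11b fan out on the tumour side with tumour 1 on top, Tnf does not spread, and Il11ra1 and Il18 are lower in every tumour than in the pool.

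Of 8 IL-1 family receptors and binding proteins tested, 3 were higher and none was lower, where 9.33% and 9.68% of all genes were. Of the 8, 5 were above background in both channels on every array, and the others passed through the tumour channel alone. Il18r1, the ligand-binding chain for IL-18, had log2 signals of 9.15, 9.52 and 8.98 in tumours and 7.25, 7.24 and 7.34 in the pool (ratio 1.94 ± 0.33, SD, n = 3; adjusted p = 0.00181). A second Il18r1 probe, matched to another transcript, gave 0.23 ± 0.17. Its partner chain Il18rap (0.41 ± 0.29, pool not well above background) and the soluble trap Il18bp (0.31 ± 0.32) were not called (adjusted p = 0.0703 and 0.15). Il1r2, the decoy receptor for IL-1, followed the uneven pattern of Il1b. It had 10.04, 8.29 and 8.52 in tumours and 7.08, 7.03 and 7.16 in the pool, a ratio of 1.86 ± 0.95 (SD, n = 3; adjusted p = 0.019). Without replicate 3 the call of Il1r2 was lost at a ratio of 2.11. The signalling receptor Il1r1 was more even, at 8.79, 8.96 and 8.28 in tumours and 7.46, 7.43 and 7.35 in the pool, a ratio of 1.26 ± 0.31 (SD, n = 3; adjusted p = 0.00444). The shared accessory chain Il1rap had a ratio of 0.20 ± 0.11 and the IL-33 receptor Il1rl1 one of 0.43 ± 0.44, neither of them called. Il1rl2 (0.10 ± 0.31), the receptor for IL-36, was not called.

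Genes that process or pass on IL-1 and IL-18 were mixed. Of 15 genes for IL-1 signalling and the inflammasome, all of them tested, 4 were higher and 1 was lower, where 9.33% and 9.68% of all genes were. Their median was 0.20, against 0.05 over all genes tested. Casp4 (3.40 ± 0.78, SD, n = 3; adjusted p = 0.00262) and Casp1 (2.16 ± 0.19; adjusted p = 0.000853), proteases of the inflammatory pathway, were higher. Pycard, the adaptor that links sensors to caspase-1, was lower at -1.74 ± 0.37 (adjusted p = 0.00278). The other 2 higher genes were Irak3, a brake on the receptor complex, at least 2.61-fold higher with the pool not well above background (adjusted p = 0.00773), and Gsdmd, the pore-forming target of these caspases, at 1.09 ± 0.35.

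In the IL-6 and LIF family, most of whose receptors share gp130 (Il6st), all 4 ligands that could be tested had their highest ratio in tumour 1. For Il27 the ratios of -0.31, -0.43 and -0.43 lay close together and below 0. Il11 (chr7:4724847-4724906, mm9) had log2 signals of 11.62, 9.03 and 7.87 in tumours and 7.44, 6.79 and 6.62 in the pool, which was well above background on 2 arrays. Every tumour lay above the pool on its own array, with tumour 1 far ahead of the others. The ratio was 2.56 ± 1.50 (SD, n = 3; adjusted p = 0.0259), and the call was lost without replicate 2 (2.72). Without replicate 1 the ratio of Il11 was 1.74. Il6 (chr5:30346367-30346426, mm9) had 10.62, 7.96 and 6.75 in tumours and 6.71, 6.57 and 6.29 in the pool, which was not well above background on any array. Its ratio was at least 3.77-fold (adjusted p = 0.0828), and it was the only gene of the 87 with at least a 2-fold difference that missed the p threshold. Il6 was called higher with Agilent's processed signals (5.48), with an offset of 0 (3.42) and with median centring (2.45) and spike-in centring (1.61). Without replicate 1 its ratio was 0.92, and it was not called. Lif, which keeps stem cells undifferentiated and also signals through gp130, had ratios of 1.87, 0.06 and 0.10 (0.68 ± 1.03, SD, n = 3; adjusted p = 0.229). Il27 had -0.39 ± 0.07 (adjusted p = 0.026), under 2-fold.

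The receptors of this family split. Osmr, the oncostatin M receptor chain (chr15:6763686-6763745, mm9), had log2 signals of 11.52, 10.18 and 10.50 in tumours and 7.99, 8.16 and 8.17 in the pool. All tumours stood far above the pool, and the ratio was 2.63 ± 0.80 (SD, n = 3; adjusted p = 0.00509). Its ligand Osm did not pass the filter, being above background in 2 tumours. Il11ra1, the IL-11 receptor chain (chr4:41716285-41716344, mm9), had 12.00, 11.75 and 11.28 in tumours and 13.98, 14.12 and 14.23 in the pool. It was the lowest ratio of the family, -2.44 ± 0.48 (SD, n = 3; adjusted p = 0.00213), so that the ligand Il11 was higher and its receptor chain lower in all 3 tumours. Il11ra1 has a near-identical copy in the mouse genome, and its probe may read both. The shared chain Il6st (0.38 ± 0.39), Il6ra (0.18 ± 0.29) and Il27ra (0.33 ± 0.16) were not called. Lifr gave -0.51 ± 0.26 at its brightest probe and -0.96 and -1.87 at 2 others, so its size differed between probes.

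Upstream sequence is shown for Il11 and Il6, chosen because each carries a match to the AP-1 motif in the 250 bases before a start, taken from RefSeq on GRCm38.p6. Of the other ligands with their highest ratio in tumour 1, Lif, Il1a, Il1rn and Tnfsf14 also had an AP-1 match. Not every annotated start of Il1rn had this match. Il19 had NF-kappa-B and STAT matches, and Il1b and Il17d had no match to any motif searched. Nor was a match found for Il1f6, Il15, Il23a, Il27, Tnfsf11, Tnfsf12 or Tnfsf12-Tnfsf13, though not every gene had a promoter to search. AP-1 was searched as TGANTCA, the STAT motif as TTCNNNGAA, and NF-kappa-B by its usual consensus, on both strands, and capitals mark the matches. The Il11 promoter lies at chr7:4778142-4778391 on the minus strand, with AP-1 beginning 98 bases before the start. The Il6 promoter lies at chr5:30012864-30013113 on the plus strand, with AP-1 at 249 and NF-kappa-B at 44 bases before the start.
Il11: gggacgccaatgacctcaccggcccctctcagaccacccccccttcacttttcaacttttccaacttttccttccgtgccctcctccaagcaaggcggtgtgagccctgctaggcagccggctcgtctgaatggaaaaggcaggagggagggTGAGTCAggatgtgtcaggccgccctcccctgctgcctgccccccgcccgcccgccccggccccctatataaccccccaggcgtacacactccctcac
Il6: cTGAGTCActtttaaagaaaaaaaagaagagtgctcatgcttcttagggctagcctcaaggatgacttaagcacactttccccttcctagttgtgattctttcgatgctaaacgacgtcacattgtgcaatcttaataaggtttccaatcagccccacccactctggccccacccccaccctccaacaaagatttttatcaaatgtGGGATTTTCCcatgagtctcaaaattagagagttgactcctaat
A second annotated Il11 start had no match. Promoters were found for 98 of the 123 genes. Of the 33 promoters of 24 genes called higher, NF-kappa-B was found in 6 (18.2%), AP-1 in 5 (15.2%) and STAT in 3 (9.09%). Over the 47 promoters of genes tested and not called the shares were 12.8%, 19.1% and 17.0%, and over all 32851 RefSeq promoters 7.25%, 6.75% and 7.02%. A match says only that these letters occur in the window.

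Of the receptors that use the common gamma chain or bind IL-4 and IL-13, 3 of 9 tested were higher and 1 was lower. Over all genes the shares were 9.33% and 9.68%. Il15 was the single ligand tested (0.16 ± 0.14). Il4ra, the signalling chain for IL-4 and IL-13, had log2 signals of 10.28, 10.50 and 9.30 in tumours and 8.18, 8.21 and 7.96 in the pool. Tumour 3 was the lowest yet still above the pool, and the ratio was 1.91 ± 0.50 (SD, n = 3; adjusted p = 0.00398), against 0.61 ± 0.26 at a second probe. Il21r, on lymphocytes, was at least 2.03-fold higher (adjusted p = 0.0148) with the pool not well above background, and ratios of 0.73, 1.52 and 0.81 put tumour 2 on top. Its call was lost without replicate 2 (0.77), without replicate 3 (1.13) and with spike-in centring (0.42). Il15ra, which presents IL-15 to neighbouring cells, had a ratio of 1.29 ± 0.32 (SD, n = 3; adjusted p = 0.00453). A second Il15ra probe gave -0.24 ± 0.05, and with the median of the probes the ratio was 0.53 and the call was lost. Il13ra2, a decoy receptor for IL-13, was lower, with ratios of -0.37, -1.67 and -1.35 (-1.13 ± 0.68, SD, n = 3; adjusted p = 0.0303), and was lost without replicate 2 (-0.86) and without replicate 3 (-1.02). Il2rg, the common gamma chain itself, passed the p threshold with a fitted ratio of 0.85 ± 0.36 and was called with an offset of 0 (1.39). For Il7r, Il2ra and Il2rb the pool was well above background on no array, and their differences of at least 1.75-fold, 1.60-fold and 1.51-fold are bounds too small for a call. With spike-in centring their ratios were 0.40, 0.13 and 0.02, and with an offset of 0 they were 1.74, 1.755 and 1.57.

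Il3ra, the IL-3 receptor alpha chain, was among the steadiest of the called genes. Its log2 signals were 10.39, 9.86 and 10.53 in tumours and 7.92, 7.96 and 8.10 in the pool, a ratio of 2.27 ± 0.31 (SD, n = 3; adjusted p = 0.0012). Every tumour was well above the pool, while IL-3 itself was on no array above background. Il5ra, with the pool well above background on no array, was at least 1.31-fold higher (adjusted p = 0.0305), a bound too small for a call. The ratio of Il5ra was -0.33 with spike-in centring and 1.08 with an offset of 0.

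In the IL-10 family 1 gene of 8 tested was called, where 19.0% of all genes were called in either direction. Il10ra, the ligand-binding chain for IL-10, had log2 signals of 8.23, 9.44 and 8.21 in tumours and 6.84, 7.09 and 6.97 in the pool. Tumour 2 stood above the other tumours, and the ratio was 1.66 ± 0.61 (SD, n = 3; adjusted p = 0.00851). The shared second chain Il10rb had a ratio of -0.28 ± 0.28 (adjusted p = 0.16), and Il10 itself was above background in no sample. Il28b, an interferon lambda whose gene has a near-identical neighbour, had ratios of -0.93, -0.91 and -0.90. This was the narrowest spread of the 87 (adjusted p = 0.00268). The mean of -0.91 is just under 2-fold, and with an offset of 0 it was -1.81 and called lower. Its receptor chain Il28ra had -0.35 ± 0.08, and Il19 0.47 ± 0.37 with the pool not well above background.

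No gene of the IL-12 family was called among 3 tested, where 19.0% of all genes were called. The largest ratio was that of Il23a (adjusted p = 0.0486), a lower bound with the pool not well above background. The IL-17 family held 1 higher and 1 lower gene of 5 tested, beside 9.33% higher and 9.68% lower over all genes. Il17rd, also called Sef and known for restraining growth factor signals, had ratios of 1.37, 0.91 and 0.93 (1.07 ± 0.26, SD, n = 3; adjusted p = 0.00507). Il17re, the epithelial receptor for IL-17C, had log2 signals of 9.54, 10.11 and 11.10 in tumours and 11.84, 11.87 and 11.85 in the pool. Tumour 1 was the lowest and tumour 3 the highest, and the ratio was -1.61 ± 0.78 (SD, n = 3; adjusted p = 0.0172). The call of Il17re was lost without replicate 2 (-1.53), and that of Il17rd without replicate 1 (0.92) and with spike-in centring (0.93). Il17rc gave -0.36 ± 0.62 at one probe and 0.32 ± 0.63 at another, and was not called.

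Outside those families, 3 genes with interleukin-based names were all tested and all higher, where 9.33% of all genes were. Each was highest in tumour 2. Il34, a ligand of the macrophage receptor Csf1r, had ratios of 0.81, 1.73 and 1.27 (1.27 ± 0.46, SD, n = 3; adjusted p = 0.00936), and Csf1r itself was higher by 2.21 ± 0.21. Il16, a T cell attractant, had 0.98, 2.09 and 0.77 (1.28 ± 0.71; adjusted p = 0.0244). Il4i1, an amino acid oxidase of antigen-presenting cells, had 0.56, 1.79 and 0.82 (1.06 ± 0.65; adjusted p = 0.0332). Each of these 3 calls was lost without replicate 3, at ratios of 1.27 for Il34, 1.54 for Il16 and 1.17 for Il4i1. Those of Il16 (0.88) and Il4i1 (0.69) were also lost without replicate 2.

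Among TNF superfamily ligands, 5 of 11 tested were higher and none was lower, where 9.33% and 9.68% of all genes were. Of the 11, only 4 were above background in both channels on every array. The others, Tnf, Tnfsf8 and Tnfsf18 among them, passed the filter through the tumour channel alone, so a lower call was hardly possible for them. Tnf, the founding member, was the most even of the called genes. Its log2 signals, from 10 spots per array, were 7.60, 7.55 and 7.69 in tumours and 6.43, 6.47 and 6.51 in the pool, which was not well above background on any array. No tumour stood out, and Tnf was at least 2.21-fold higher, with a ratio of 1.14 ± 0.06 (SD, n = 3; adjusted p = 0.0017). With spike-in centring the ratio was 0.78 and the call was lost. Tnfsf8 (CD30 ligand) was at least 3.76-fold higher (adjusted p = 0.00226), with log2 signals of 8.30, 9.15 and 8.14 in tumours and 6.54, 6.82 and 6.50 in the pool. Tnfsf18 (GITR ligand) was at least 3.18-fold higher (adjusted p = 0.0109) and was the clearest case of tumour 3 on top: 7.62, 8.67 and 9.06 in tumours and 6.69, 6.85 and 6.80 in the pool. For both ligands the pool was not well above background. Tnfsf9 (4-1BB ligand) had 8.67, 9.66 and 7.96 in tumours and 6.87, 7.06 and 6.92 in the pool, a ratio of 1.81 ± 0.78 (SD, n = 3; adjusted p = 0.0123).

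The read-through gene Tnfsf12-Tnfsf13, which joins the TWEAK and APRIL genes, had a ratio of 1.86 ± 0.51 (SD, n = 3; adjusted p = 0.00452). Its second probe gave 0.11 ± 0.11, the call was lost with the median of the probes (0.98), and a read-through transcript shares exons with its parent genes, so the source of this signal is uncertain. Tnfsf12 (TWEAK) itself had -0.14 ± 0.14 and Tnfsf10 (TRAIL) -0.04 ± 0.07, neither of them called. Tnfsf14 (LIGHT), with the pool well above background on no array, was at least 1.76-fold higher (adjusted p = 0.00695), a bound too small for a call. The ratio of Tnfsf14 was 0.12 with spike-in centring and 3.36 with an offset of 0. Tnfsf13b (BAFF; 0.60 ± 0.31) and Tnfsf15 (0.58 ± 0.23) passed the p threshold with fitted ratios under 2-fold, with the pool above background on 1 array. Tnfsf11 (RANKL) had ratios of 1.69, 0.34 and 0.47 with the pool not well above background (adjusted p = 0.0809).

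In the TNF receptor superfamily 4 of 14 tested genes were higher and 1 was lower, where 9.33% and 9.68% of all genes were. Tnfrsf11b, osteoprotegerin, is a secreted decoy that traps RANKL and TRAIL (chr15:54082760-54082819, mm9). It had log2 signals of 10.29, 8.89 and 8.09 in tumours and 6.62, 6.54 and 6.51 in the pool, which was not well above background on any array. Tumour 1 was again the highest, and the gene was at least 5.79-fold higher (ratio 2.53 ± 1.06, SD, n = 3; adjusted p = 0.0109). The TWEAK receptor Tnfrsf12a had 12.53, 13.11 and 12.46 in tumours and 11.14, 11.18 and 11.17 in the pool, a ratio of 1.54 ± 0.35 (adjusted p = 0.00337). The death receptor Tnfrsf21 (DR6) was lower: 7.57, 7.35 and 7.14 in tumours and 8.69, 8.64 and 8.71 in the pool, a ratio of -1.33 ± 0.23 (adjusted p = 0.00261). The TNF receptors proper differed little, with ratios of 0.20 ± 0.11 for Tnfrsf1a (adjusted p = 0.154) and 0.24 ± 0.32 for Tnfrsf1b (adjusted p = 0.251). Tnfrsf18 (GITR) had ratios of -0.10, 1.53 and 0.59 and Tnfrsf4 (OX40) had -0.05, 0.86 and 0.29. Both are receptors found on T cells, both had tumour 2 on top and neither was called.

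For Tnfrsf23 and Tnfrsf9 the pool signal moved from array to array, although the RNA was the same. Tnfrsf23, a mouse decoy receptor for TRAIL, had log2 signals of 10.12, 11.99 and 9.09 in tumours and 8.17, 9.34 and 7.96 in the pool (ratio 1.91 ± 0.76, SD, n = 3; adjusted p = 0.00991). The pool values follow the tumour values over a range of 1.38 log2 units, the widest pool range of the 87. A second Tnfrsf23 probe gave 0.62 ± 0.32, and the neighbouring copy Tnfrsf22, 0.58 ± 0.51, was not called. The signals of these near-identical genes may not be separate. Tnfrsf9, the receptor 4-1BB, had 12.29, 11.15 and 10.85 in tumours and 10.69, 9.99 and 9.78 in the pool (ratio 1.28 ± 0.28; adjusted p = 0.00377), with a second probe at 0.45 ± 0.59. With the median of its probes Tnfrsf9 had a ratio of 0.87 and was not called. Il15ra showed the same, at 12.49, 11.49 and 11.06 in tumours and 10.87, 10.22 and 10.08 in the pool. The median SD over the 87 genes was 0.39 for the tumour signal and 0.10 for the pool signal. A Tnfrsf9 promoter, at chr4:150927749-150927998 on the plus strand, held every motif searched: overlapping NF-kappa-B matches at 43 and 42, AP-1 at 15 and STAT at 136 bases before the start.
Tnfrsf9: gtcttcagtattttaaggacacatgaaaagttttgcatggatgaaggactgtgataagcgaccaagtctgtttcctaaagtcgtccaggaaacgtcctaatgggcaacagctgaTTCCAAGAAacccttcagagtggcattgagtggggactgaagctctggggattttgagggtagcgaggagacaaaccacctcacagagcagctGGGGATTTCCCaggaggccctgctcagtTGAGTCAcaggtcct
Its other annotated start had no match.

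Of 7 TNF-induced proteins tested, 5 were higher and none was lower, where 9.33% and 9.68% of all genes were. Of the 7, 5 were above background in both channels on every array, and the others passed through the tumour channel alone. Tnfaip8l1, a relative of Tnfaip8, had log2 signals of 11.03, 11.08 and 10.36 in tumours and 7.71, 7.83 and 7.64 in the pool (chr17:56312297-56312356, mm9). The tumours lay close together and far above the pool, and the gene was 8.56-fold higher (SD of the log2 ratio 0.33, n = 3), with the smallest adjusted p of the 87 (adjusted p = 0.000788). Tnfaip8, known for limiting apoptosis, was higher by 1.41 ± 0.21 (adjusted p = 0.00205), with 1.34 at a second probe. Tnfaip8l2 (TIPE2), a leukocyte member that dampens immune receptors, had 1.13 ± 0.40 (adjusted p = 0.00943) with the pool above background on 2 arrays. Its call was lost without replicate 2 (0.91) and with spike-in centring (0.91). Tnfaip2, a TNF-induced protein linked to cell protrusions, had ratios of 2.31, 2.77 and 1.07 (2.05 ± 0.88; adjusted p = 0.012), and its second probe gave 1.72. Tnfaip3 (A20), the ubiquitin-editing brake on NF-kappa-B, had 10.63, 9.55 and 10.20 in tumours and 8.64, 8.66 and 8.81 in the pool. Tumour 2 was the lowest, the ratio was 1.42 ± 0.55 (SD, n = 3; adjusted p = 0.0101), and the call was lost without replicate 3 (1.44). Tnfaip1 (0.30 ± 0.26) and Tnfaip6 (0.29 ± 0.38) were not called.

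Promoters of 2 of these genes are shown because they carry NF-kappa-B matches, in capitals. A Tnfaip2 promoter, not shown, also carries an NF-kappa-B match, at 24 bases before the start. Tnfaip3 has its promoter at chr10:19015411-19015660 on the minus strand, with NF-kappa-B at 125 and 12 and AP-1 at 136 bases before the start. Tnfaip8l1 has its promoter at chr17:56162241-56162490 on the plus strand, with NF-kappa-B at 148.
Tnfaip3: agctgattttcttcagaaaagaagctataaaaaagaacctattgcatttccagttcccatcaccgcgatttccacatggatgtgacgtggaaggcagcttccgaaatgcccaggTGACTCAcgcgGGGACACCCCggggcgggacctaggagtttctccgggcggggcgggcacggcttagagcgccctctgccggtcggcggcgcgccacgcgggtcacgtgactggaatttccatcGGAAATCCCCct
Tnfaip8l1: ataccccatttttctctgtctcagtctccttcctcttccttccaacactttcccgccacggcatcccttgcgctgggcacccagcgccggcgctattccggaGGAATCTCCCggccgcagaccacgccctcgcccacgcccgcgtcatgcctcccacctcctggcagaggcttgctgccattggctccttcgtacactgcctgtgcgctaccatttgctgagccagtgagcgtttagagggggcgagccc
The promoters of Osmr and Tnf held no match to any of the motifs in this window.

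Lists of genes that carry these signals inside the cell were counted in the same comparison. Of 26 TNF and NF-kappa-B signalling genes tested, 2 were higher (7.69%) and none lower, where 9.33% and 9.68% of all genes were. Their median was 0.42, against 0.05 over all genes tested. They were the adaptors Traf1 (2.18 ± 0.50, SD, n = 3; adjusted p = 0.00287) and Traf5 (1.16 ± 0.50; adjusted p = 0.0143). Of 18 JAK, STAT and SOCS genes, 3 were higher (16.7%) and 2 lower (11.1%), beside the same shares over all genes, with a median of 0.28. The feedback inhibitors Socs1 (1.14 ± 0.38; adjusted p = 0.00821) and Socs3 (1.13 ± 0.29; adjusted p = 0.00538) were higher. The kinase gene Jak3 was also higher (1.07 ± 0.19; adjusted p = 0.00359). Cish, another feedback inhibitor and a target of STAT5, was lower at -2.26 ± 0.31 (adjusted p = 0.00121). Stat5a was the other lower gene, at -1.14 ± 0.22 (adjusted p = 0.00352). Stat3, the main factor downstream of gp130, had -0.16 ± 0.14 and was not called.

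The called genes differed in which tumour carried the highest ratio. Of the 30 higher genes, 13 had their highest ratio in tumour 1, 15 in tumour 2 and 2 in tumour 3, while over all 1814 genes called higher the counts were 803, 617 and 394. Il1b, Il11, Tnfrsf11b, Il1r2 and Osmr exceeded their own mean most in tumour 1, by 0.91 to 1.97 log2 units, and Il6 and Lif, not called, were also highest there. Il16, Tnfsf9, Il4i1, Tnfrsf23, Tnfaip2 and Il10ra exceeded their mean most in tumour 2. Some marker lists moved along with these values: all 10 neutrophil markers and 8 of 9 fibroblast markers were highest in tumour 1, and 6 of 7 B and plasma cell markers in tumour 2. Endothelial markers were highest in tumours 1, 2 and 3 for 5, 1 and 1 genes, with median ratios of 1.25, 0.95 and 0.52. For gastric gland epithelium markers, all called lower, the counts were 7, 2 and 1, and over all genes tested 7093, 5908 and 6433. Other lists did not follow 1 tumour: the counts were 2, 4 and 5 for macrophage markers and 3, 3 and 1 for T and NK cell markers. The neutrophil list had median ratios of 3.83, 1.91 and 2.01 in tumours 1, 2 and 3, and the B and plasma cell list 1.52, 2.65 and 2.09. Their part in the pattern was not tested, and with 1 sample per tumour these differences between tumours have no replicate.

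**Figure D3:**
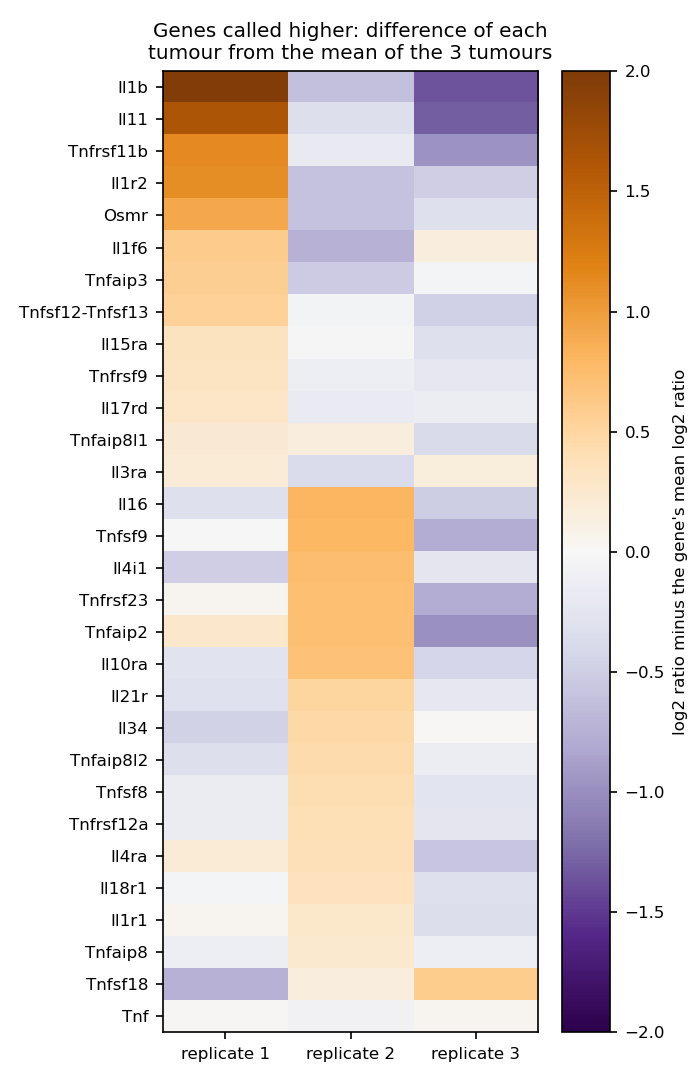
Difference of each tumour's log2 ratio from the gene's mean over the 3 tumours (colour scale in log2 units) for the 30 genes called higher, with tumours in columns and genes in rows grouped by the tumour with the highest ratio. Of these, 13 are highest in replicate 1, led by Il1b and Il11, 15 in replicate 2 and 2, Tnfsf18 and Tnf, in replicate 3.

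The calls depended on how the arrays were scaled, as the plot of 4 scalings shows. Of the 30 higher genes, 15 were called under every alternative in which they were tested: Il10ra, Il18r1, Il1r1, Il3ra, Il4ra, Osmr, Tnfaip2, Tnfaip8, Tnfaip8l1, Tnfrsf11b, Tnfrsf12a, Tnfrsf23, Tnfsf18, Tnfsf8 and Tnfsf9. None of the 5 lower genes was, since with each array centred on its median all kept a negative ratio but none was called. That centring put the median of all genes tested at 0.77 in place of 0.05, and 93.3% of all called genes then were higher, against 49.1%. The ratio of 10 of the 87 genes changed sign with it and that of 19 with spike-in centring, none of them called with loess. Relative to that shift, Il11ra1 (-0.95) and Il18 (-0.37) stayed below the median of all genes. With all tumours in red and the pool in green on every array, a dye effect and a tumour effect cannot be told apart.

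**Figure D4:**
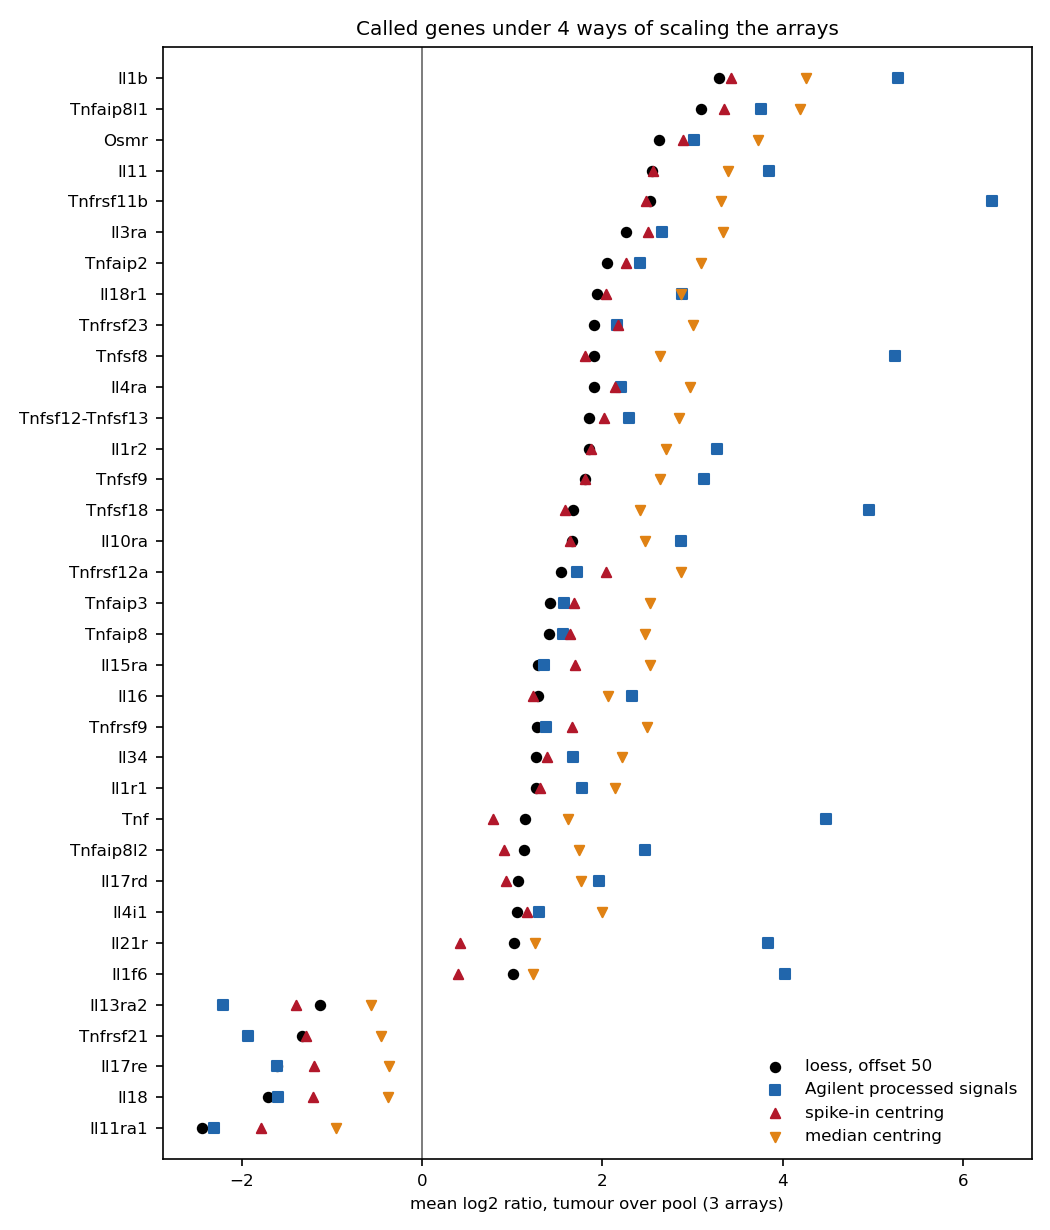
Mean log2 ratio of tumour over pool (x axis) of the 35 called genes (y axis) under 4 scalings: loess, Agilent's processed signals, and centring of each array on its spike-ins or on its median. Median centring moves every called gene upwards, and Agilent's signals give a larger ratio for genes such as Tnf (4.49 in place of 1.14), whose pool signal was not well above background.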

How the data were processed

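RNA from 3 tumours and 1 pool of 5 normal mucosae was measured on 3 two-colour arrays of 1 slide, scanned on 1 day, so slide and scan could not be tested as batches. Per the labels' protocols, 250 ng of total RNA with an integrity number above 7 was labelled, tumours in Cy5 and the pool in Cy3. Intensity was deposited per spot, as a mean signal and a median local background in each colour, with mm9 probe coordinates per the file headers. Feature Extraction is named as version 10.7.3.1 in the headers and as 9.5.3 in the submitters' processing notes. The log10 ratio in those files divides the processed red by the processed green signal, per the file headers. A series-wide table deposited by the authors gives log2 ratios, and at 99.8% of its filled probes these lay within 0.01 of the scanner ratio with the tumour on top. Column medians of that table were -0.15, -0.13 and -0.11, and its filter on blank probes is not given in the sources used here.

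With limma 3.58.1 (R 4.3.3), background was corrected by normexp with an offset of 50, and each array was normalised by loess at a span of 0.3 with controls at weight 0. After 157, 167 and 190 gene spots with outlier flags were dropped, a probe's value was the mean of its spots. The filter asked for 3 of 3 arrays well above background in at least one colour. The brightest probe that passed stood for its gene, and 16 genes described here had several. The members keep the files' gene names, and 26055 of 39429 probes were named by accession through RefSeq. A two-sided test of each log2 ratio against 0 came from lmFit and eBayes (prior degrees of freedom 2.45), adjusted over all genes by Benjamini-Hochberg. The offset pulls ratios of dim genes towards 0. The pool is 1 sample hybridised on every array, so the test leaves out the spread among normal mice. Precision is limited by the number of arrays. Errors are SDs of the ratios over the 3 tumours. The labels call the tumours biological replicates.

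A gene not well above background in the pool on any array has a bound of at least N-fold, the tumour mean over a floor for the pool, which per array is its own signal or, if higher, the lowest one well above background (loess and Aquantile). Bounds hold under that scaling only and are open to dye bias. With spike-in centring some of these genes had ratios below 0, Il1a (-0.23), Il5ra (-0.33) and Il23a (-0.21) among them. With an offset of 0 the ratios of Il1a, Il5ra and Il23a were 1.59, 1.08 and 1.10. Where the dim signal lay above the lowest signal well above background, the bound equals the fitted fold. Genes were called at an adjusted p under 0.05 and at least 2-fold. All genes of the family could be named: called ones by role, up to 4 per role with full statistics, and the largest ratio where a role had no call. Pathway lists give up to 3 called genes, and marker lists the most extreme one. Where further genes of a list are named, they were chosen after their values were seen. The members, lists and rules were chosen with earlier results of these data known. The test was tried on simulated data with known changes. Alternatives were Agilent's processed signals, the authors' table, an offset of 0, median and spike-in centring without loess, other filters, the median of a gene's probes, and leaving out each tumour.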

Additional observations from a re-analysis of the deposited data

How the results depend on the processing

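With all tumours in red, 1 pool and 3 arrays, neither dye nor variation among normal mice could be estimated, and signals near background limit the ratios of dim genes. No paired analysis was possible because the arrays form 1 group, each tumour set against the same pool. Genes called over the whole array numbered 3696, and 6817 with Agilent's processed signals, 5743 with an offset of 0 and 8303 with median centring. Of the interleukin and TNF family genes, 49 were higher with the processed signals and 47 with an offset of 0, against 30. Those called lower numbered 0 with median centring and 8 with spike-in centring, against 5. Their median log2 ratio of 0.53 was 1.72 with the processed signals, 0.39 in the authors' table, 1.24 with an offset of 0, 1.04 with median centring, 0.20 with spike-in centring, 0.31 over genes above background in both channels and 0.22 with no filter on dim probes, which takes in all 123 genes. Leaving out 1 tumour gave 3436 to 3607 genes called over the array, 24 to 29 higher and 3 to 5 lower genes of the family (3 without replicate 2, which ended the calls of Il13ra2 and Il17re) and medians of 0.42 to 0.60. Il33 reversed, to 1.04 with median centring (adjusted p = 0.0274). Leaving out replicates 1, 2 and 3 ended 2, 6 and 7 of the 30 higher calls, 11 in at least 1 of these settings, spike-in centring ended 5 and the median of a gene's probes 3 (Il15ra, Tnfrsf9 and Tnfsf12-Tnfsf13). Genes not called became called in 20 cases with the processed signals, 18 with an offset of 0, 14 with median centring, 4 with spike-in centring, 2 in the authors' table and 2 without replicate 3 and 1 without replicate 1. The cause of these changes was not tested.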

Other observations

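Of 16 family genes with several kept probes, 6 had probes that differed by over 1 log2 unit in mean ratio, and 4 had probes of opposite sign. The widest gaps were those of Tnfsf12-Tnfsf13 (1.86 and 0.11), Il18r1 (1.94 and 0.23) and Il15ra (1.29 and -0.24). For Lifr the 3 probes gave -0.51, -0.96 and -1.87, and the last, matched to another transcript, had an SD of 0.02 over the 3 tumours. The exon or UTR under each probe was not assigned, since no annotation of mm9 was used here.

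The pool signal, from the same RNA on every array, had a range of over 0.5 log2 units for 8 of the 87 genes. The widest ranges were those of Tnfrsf23 (1.38), Tnfrsf9 (0.91), Il11 (0.82) and Il15ra (0.79). Each of these 4 was called higher, and for each the pool was brightest on the array of the tumour with the brightest signal. For all 30 genes called higher the SD of the tumour signal was above that of the pool signal. This was not particular to the called genes. Over all 87 genes the median SD was 0.39 for the tumour signal and 0.10 for the pool signal, which came from 1 RNA.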
